A study of Mus musculus with 12 samples.

Results

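The MHC class II and costimulation genes were followed here as a group of 10 genes chosen by name: the class II chains H2-Aa, H2-Ab1 and H2-Eb1, the invariant chain Cd74, the peptide exchange chains H2-DMa and H2-DMb1, the class II transactivator Ciita, and the costimulatory genes Cd80, Cd83 and Cd86. Of these, 9 had at least 1 probe set that named them alone, and 5 of the 10 passed the filter on low signals and were tested among 12071 of 18194 genes. H2-DMb1 was named only on probe sets shared with H2-DMb2. The cells were BV-2, an immortalized mouse microglia line, so that every array came from 1 line. Cultures were left untreated (control) or were treated for 24 h with 50 µM luteolin, a plant flavone, with 50 ng/ml lipopolysaccharide (LPS), a bacterial cell wall component that activates macrophages, or with both agents at these doses (luteolin + LPS). Each of the 4 groups had 3 Affymetrix Mouse Genome 430 2.0 arrays, numbered 1 to 3, and the cultures of a group came from separate stimulation experiments. The labels call the controls untreated, and whether they received the solvent of luteolin is not given in the sources used here.

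Class II molecules are pairs of an alpha and a beta chain that show peptides from endosomes to CD4+ T cells. The invariant chain occupies their peptide groove until it is cleaved, and the H2-DM pair then exchanges its last fragment for other peptides. Ciita does not bind DNA itself but joins the RFX, CREB and NF-Y factors on the X and Y boxes upstream of class II genes. Cd80 and Cd86 bind CD28 and CTLA-4 on T cells, and Cd83 keeps class II and Cd86 at the cell surface by opposing their ubiquitination. Resting microglia are known for low class II levels.

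Promoter sequences of class II genes are shown with letters that match cores of these boxes. RefSeq promoter windows (build GRCm38.p6, 250 bases before to 50 bases after the start) were found for 5 of the 10 genes, H2-Aa, H2-Eb1, H2-DMa, H2-DMb1 and Cd80, and none for Cd74, H2-Ab1, Ciita, Cd83 or Cd86. The stretches run 5′ to 3′ from 140 to 31 bases before the start, and capitals mark CCAAT or its reverse complement ATTGG (the Y box core), AACTGATG (an X box form), ACAGATG (another X box core) and the palindrome TGACGTCA (a CREB motif). H2-Oa, the alpha chain of the H2-DM inhibitor H2-O, is added because its signal passed the test for luteolin.
H2-Aa: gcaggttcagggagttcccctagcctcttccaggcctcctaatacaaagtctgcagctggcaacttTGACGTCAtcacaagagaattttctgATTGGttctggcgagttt
H2-Eb1: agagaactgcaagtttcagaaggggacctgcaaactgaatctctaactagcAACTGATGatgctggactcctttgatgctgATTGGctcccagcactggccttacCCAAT
H2-DMb1: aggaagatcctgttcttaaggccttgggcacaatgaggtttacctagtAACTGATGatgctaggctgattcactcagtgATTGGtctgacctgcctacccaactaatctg
H2-Oa: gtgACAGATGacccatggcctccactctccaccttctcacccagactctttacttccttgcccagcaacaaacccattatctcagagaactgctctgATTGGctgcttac
These stretches lie at chr17:34287854-34287963 (minus strand), chr17:34305727-34305836 (plus strand), chr17:34153051-34153160 (plus strand) and chr17:34092239-34092348 (plus strand).

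ATTGG stood on the sense strand 48 bases before the start in H2-Aa, 59 bases before it in H2-Eb1, 61 bases before it in H2-DMb1 and 43 bases before it in H2-Oa, counted at its first base. In H2-Eb1 and H2-DMb1, AACTGATG preceded it by 22 and 23 bases. Searched on both strands of 32851 windows, CCAAT was found in 37.4% and AACTGATG in 0.8%, the latter chosen after the windows had been read, as was TGACGTCA (1.8%), which stood 74 bases before the start of H2-Aa. The NFkB motif GGGNNTTNC, found in 15.2% of all windows, stood in the windows of H2-Aa and H2-Oa. ACAGATG (5.0% of all windows) stood in the same genes, 232 bases before the start of H2-Aa on the antisense strand and 137 before that of H2-Oa. Both lay farther from ATTGG than AACTGATG did in H2-Eb1 and H2-DMb1. The interferon response motif GAAANNGAA (8.6%) and the STAT motif TTCNNNGAA (8.3%) were in none of the windows of these genes. Of the 2 windows of H2-DMa, 1 held CCAAT alone and the other held none of these motifs, as did the Cd80 window. Letters in a window are a description and not a measured binding site.

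H2-Aa, H2-Ab1 and Ciita were not above the minimum signal of 50 fluorescence units that the study used, whereas H2-Eb1 was just above it. All 10 probe sets that name H2-Aa, H2-Ab1 or Ciita alone were under 50 on all 12 arrays, with values from 5.3 to 41.6. The 4 probe sets of H2-Aa reached at most 35.5, the 3 of H2-Ab1 at most 40.6 and the 3 of Ciita at most 41.6. A signal under 50 does not show that a transcript was absent, and one over 50 does not show that it was present. The probe set 1435290_x_at of H2-Aa read 18.7, 17.4 and 21.2 in control, 16.0, 17.3 and 18.9 with luteolin, 24.9, 35.5 and 31.5 with LPS, and 20.8, 16.7 and 18.2 with luteolin + LPS. Its 3 LPS values lay above the other 9, but all were below the minimum signal, no test was made, and the other 3 H2-Aa probe sets did not show this order.

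H2-Eb1, the beta chain of I-E, was the only class II chain among the members that was tested, and its signals stayed close to the minimum. They were 65.3, 50.6 and 62.4 in control, 65.2, 63.0 and 74.8 with luteolin, 67.3, 61.8 and 68.0 with LPS, and 73.2, 63.4 and 65.2 with luteolin + LPS. The groups overlapped in every comparison. The log2 fold change for LPS versus control was 0.15 (SE 0.13, 95% interval -0.12 to 0.43, limma adjusted p = 0.526), and that for luteolin over both states was 0.11 (SE 0.09, 95% interval -0.08 to 0.31, adjusted p = 0.547). Of the class II chains outside the group, H2-Ea, the alpha partner of H2-Eb1, ranged from 152.5 to 220.9 over the 12 arrays. H2-Eb2 ranged from 93.6 to 140.7, and neither passed in any comparison. Signals at these levels do not show that the transcripts were present. The T cell marker Cd4 ranged from 97.1 to 146.5 on the same arrays.

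H2-DMa was dim, and H2-DMb1 was measured only together with H2-DMb2. The brighter H2-DMa probe set read 27.5, 26.9 and 30.9 in control, 50.0, 38.9 and 36.4 with luteolin, 32.8, 35.3 and 33.6 with LPS, and 43.2, 68.4 and 35.5 with luteolin + LPS. The control values lay below the other 9, yet only 2 arrays reached 50 and the gene was not tested. The second H2-DMa probe set stayed between 23.9 and 42.9. For H2-DMb1 the probe set 1449580_s_at, which H2-DMb2 shares, read 150.5, 132.2 and 101.6 in control, 132.7, 94.1 and 85.5 with luteolin, 157.0, 115.8 and 95.5 with LPS, and 134.0, 80.3 and 85.4 with luteolin + LPS. Each luteolin array was below the array of the same number without luteolin, in both states, with overlapping groups. The mean log2 difference for luteolin versus control was -0.31, without a test because the 2 genes cannot be told apart on it. The other shared probe set, 1418638_at, ranged from 28.8 to 76.0, with 5 of 12 arrays at 50 or more, and its mean log2 difference for luteolin versus control was -0.29.

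**Figure D1:**
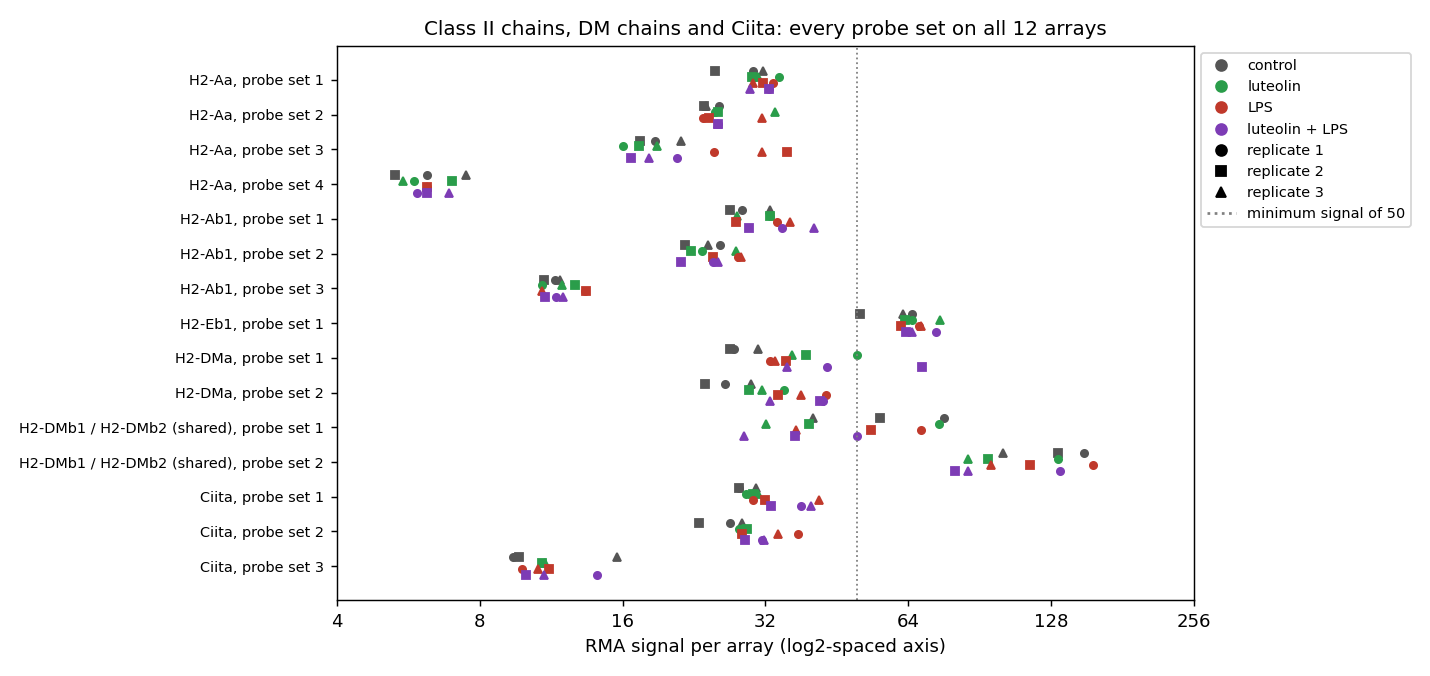
RMA signal (log2-spaced axis) of every probe set of the class II chains, the DM chains and Ciita on 12 arrays, with colours for the 4 groups, symbols for the replicate number and a dotted line at the minimum signal of 50. All 10 probe sets of H2-Aa, H2-Ab1 and Ciita lie left of the line, and H2-Eb1 lies between 50.6 and 74.8.

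Cd74, the invariant chain that also acts as a surface receptor for the cytokine MIF, was measured far above the minimum signal on all 12 arrays while Ciita and 2 of the 3 class II chains were under it. Its signal was 1296.1, 2981.8 and 2576.2 in control and 607.6, 1586.6 and 1172.9 with luteolin. With LPS it was 3299.7, 4680.6 and 3681.9, and with luteolin + LPS it was 1124.2, 1656.2 and 3474.8. All 3 LPS arrays lay above the 3 control arrays. The luteolin arrays overlapped the controls, and the luteolin + LPS arrays overlapped the LPS arrays through replicate 3 alone.

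In all 6 comparisons of arrays with the same number, Cd74 was lower with luteolin than without it. The log2 differences were -1.09, -0.91 and -1.14 for replicates 1, 2 and 3 against control, and -1.55, -1.50 and -0.08 against LPS. Over both states the log2 fold change for luteolin was -1.05 (SE 0.32, 95% interval -1.76 to -0.33), a fold of 0.484, with a limma adjusted p of 0.109 that missed the threshold of 0.05. With the replicate number as a block, which the arrays' deviations call for, the same value had an SE of 0.20 and an adjusted p of 0.0160. Against control alone it was -1.05 (adjusted p = 0.535, with the block 0.151), and against LPS alone -1.05 (adjusted p = 0.319, with the block 0.0722). With 1 array left out, the value over both states ran from -1.27 to -0.85 without the block and passed in 1 of 12 fits, that without luteolin + LPS replicate 3 (adjusted p = 0.0467). With the block it ran from -1.24 to -0.89 and passed in 10 of 12 fits, the exceptions being those without control replicate 2 (adjusted p = 0.0521) and without luteolin replicate 3 (adjusted p = 0.0532). Without the block, the values against control ran from -1.41 without control replicate 1 to -0.66 without luteolin replicate 1, and those against LPS from -1.50 without luteolin + LPS replicate 3 to -0.68 without luteolin + LPS replicate 1.

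The LPS difference of Cd74 was 0.84 on the log2 scale (SE 0.46, 95% interval -0.17 to 1.85), higher in 3 of 3 numbers, and did not pass the test (adjusted p = 0.332, with the block 0.0908). It was 0.47 without control replicate 1 and 1.07 without control replicate 2. The difference between the luteolin effects with and without LPS was 0.00, with a 95% interval of -1.43 to 1.43 without the block. That interval includes the spread between replicate numbers. These arrays do not settle whether the effects were alike. The luteolin and LPS comparisons with control share the control arrays. In bulk RNA of 1 line, fewer cells with the transcript and less of it per cell cannot be told apart. The genes tested whose log2 signal over the 12 arrays correlated best with that of Cd74 were 5430416N02Rik (Pearson r 0.966), Zfp131 (0.954) and Traf4 (0.947), given as a description.

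Cd86 had the smallest spread of the costimulatory members. On the brighter probe set, 1449858_at, the control arrays read 1242.5, 1533.4 and 1303.7 and the LPS arrays 1936.5, 2009.1 and 2148.0, without overlap. With luteolin they read 1249.4, 1245.8 and 983.0, and with luteolin + LPS 1275.9, 998.5 and 1487.8. The luteolin + LPS arrays lay below every LPS array and overlapped the controls.

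The Cd86 log2 fold change was 0.58 for LPS versus control (SE 0.16, adjusted p = 0.0691, with the block 0.0556) and -0.71 for luteolin + LPS versus LPS (SE 0.16, adjusted p = 0.0694). The latter was lower in 3 of 3 numbers and passed with the block (adjusted p = 0.0465). With 1 array left out it passed in 1 of 12 fits without the block and in 1 of 12 with it, both times without luteolin + LPS replicate 3 (-0.85, adjusted p = 0.0436, and with the block -0.88, adjusted p = 0.0410). It was smallest without luteolin + LPS replicate 2, an array that stood apart in its LPS genes, at -0.56 (adjusted p = 0.196) and with the block -0.51 (adjusted p = 0.131). Luteolin alone gave -0.23 (SE 0.16, adjusted p = 0.749). Over both states luteolin gave -0.47 (SE 0.11, adjusted p = 0.0509, with the block 0.0377), which passed with the block in 3 of 12 fits with 1 array left out (adjusted p up to 0.104). The difference between the luteolin effects in both states was -0.48 (95% interval -0.98 to 0.02, adjusted p = 0.999).

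The second Cd86 probe set, 1420404_at, did not show these differences. It ranged from 534.7 to 811.1 over the 12 arrays, with log2 differences of 0.19 for LPS versus control and -0.06 for luteolin + LPS versus LPS. With the mean of both probe sets the latter was -0.38 (adjusted p = 0.215). The Cd86 values above therefore rest on 1 of 2 probe sets.

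Cd83 differed more between the experiments than between the treatments. Its signal was 2396.8, 588.5 and 886.0 in control, 2311.3, 699.3 and 986.4 with luteolin, and 1710.3, 530.3 and 587.8 with LPS. With luteolin + LPS it was 3242.0, 1291.9 and 2581.9. Replicate 1 was the highest array of every group. It lay above the mean of replicates 2 and 3 by 1.73 on the log2 scale in control, 1.48 with luteolin, 1.61 with LPS and 0.83 with luteolin + LPS.

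Within each number, Cd83 was higher with luteolin + LPS than with LPS, by 0.92, 1.28 and 2.13 on the log2 scale. The mean log2 fold change was 1.45, a fold of 2.73, with an SE of 0.63 and an adjusted p of 0.318 in the fit without the block. With the block the SE was 0.21 and the adjusted p 0.0118, and it passed in 11 of 12 fits with 1 array left out, the exception being that without LPS replicate 3 (1.27, adjusted p = 0.0537). Without all arrays of number 1, a choice made after the values had been seen, it was 1.71 with an adjusted p of 0.0422. Luteolin alone gave 0.12 (95% interval -1.28 to 1.51, adjusted p = 0.987, with the block 0.850), and LPS alone gave -0.41 (95% interval -1.81 to 0.99, adjusted p = 0.753, with the block 0.224). Both intervals are of the fit without the block and include the spread between replicate numbers. For replicates 1, 2 and 3, luteolin alone gave -0.05, 0.25 and 0.15, and LPS alone gave -0.49, -0.15 and -0.59.

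Over both states the Cd83 value for luteolin was 0.78 (SE 0.45, adjusted p = 0.385, with the block 0.0138), of which the LPS state held the larger part. With the block it passed in 12 of 12 fits with 1 array left out, from 0.64 to 0.91. The difference between the luteolin effects in both states was 1.33 (95% interval without the block -0.64 to 3.31). It passed in neither fit (adjusted p = 0.999, with the block 0.390), so a difference between the states was not shown. The genes tested whose log2 signal over 12 arrays correlated best with that of Cd83 were Vps28 (Pearson r 0.951), Mrpl23 (0.935) and Gm3912 (0.908), given as a description. The size of change differed, with geometric means of Vps28 at 3622.9 with LPS and 4292.3 with luteolin + LPS, against 810.8 and 2211.3 for Cd83.

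Cd80 had low signals. On its brightest probe set, 1451950_a_at, they were 47.5, 99.4 and 81.8 in control, 55.3, 80.7 and 87.8 with luteolin, 69.9, 147.9 and 201.5 with LPS, and 90.9, 84.3 and 197.6 with luteolin + LPS. All groups overlapped, and replicate 1 was the lowest array in 3 of the 4 groups. LPS was higher than control in 3 of 3 numbers, by 0.56, 0.57 and 1.30, with a log2 fold change of 0.81 (SE 0.44, 95% interval -0.15 to 1.77, adjusted p = 0.324, with the block 0.0785). It was 0.48 without LPS replicate 3 and 1.25 without LPS replicate 1. Luteolin + LPS versus LPS gave -0.15 (95% interval -1.12 to 0.81, adjusted p = 0.915) and luteolin versus control gave 0.01 (95% interval -0.96 to 0.97). The other 3 Cd80 probe sets had group means under 50 throughout.

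**Figure D2:**
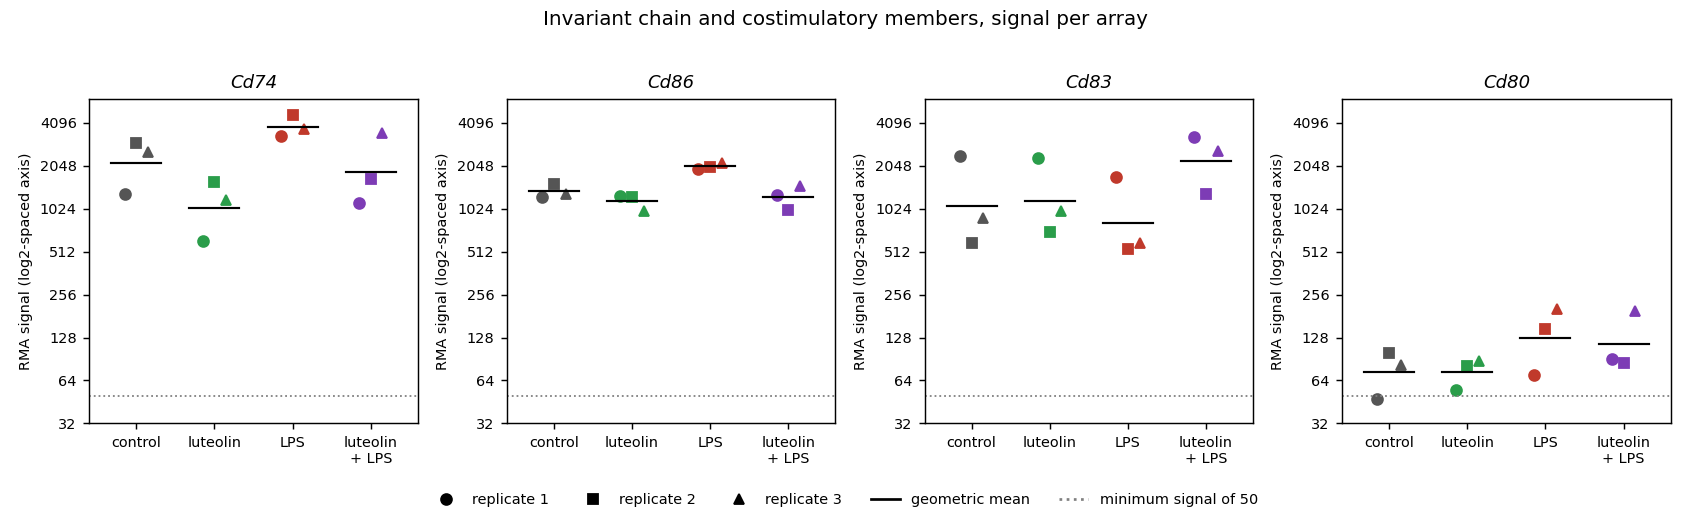
RMA signal per array (log2-spaced axis) of Cd74, Cd86, Cd83 and Cd80 in the 4 groups, with a symbol per replicate number, a bar at the geometric mean of 3 arrays and a dotted line at 50. The LPS arrays of Cd74 and Cd86 lie above the controls, and replicate 1 of Cd83 is the highest array in each group.

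Counted together, 0 of the 5 members tested passed for LPS versus control, where 4.18% of the 12071 genes passed. With the block the count was also 0, with 11.1% of all genes. For luteolin versus control 0 members passed, against 0% of all genes without the block and 0.282% with it. For luteolin + LPS versus LPS 0 members passed without the block (0.505% of all genes), and 2 passed with it (4.79%), Cd83 higher and Cd86 lower. For luteolin over both states the counts were 0 (3.08%) and 3 (10.1%), Cd74 and Cd86 lower and Cd83 higher. The interaction of luteolin and LPS passed in 0 members and 0% of all genes, without and with the block. At an unadjusted p under 0.05 in limma there were 1097 genes for luteolin versus control and 380 for the interaction. With the block these counts were 1819 and 798.

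**Figure D3:**
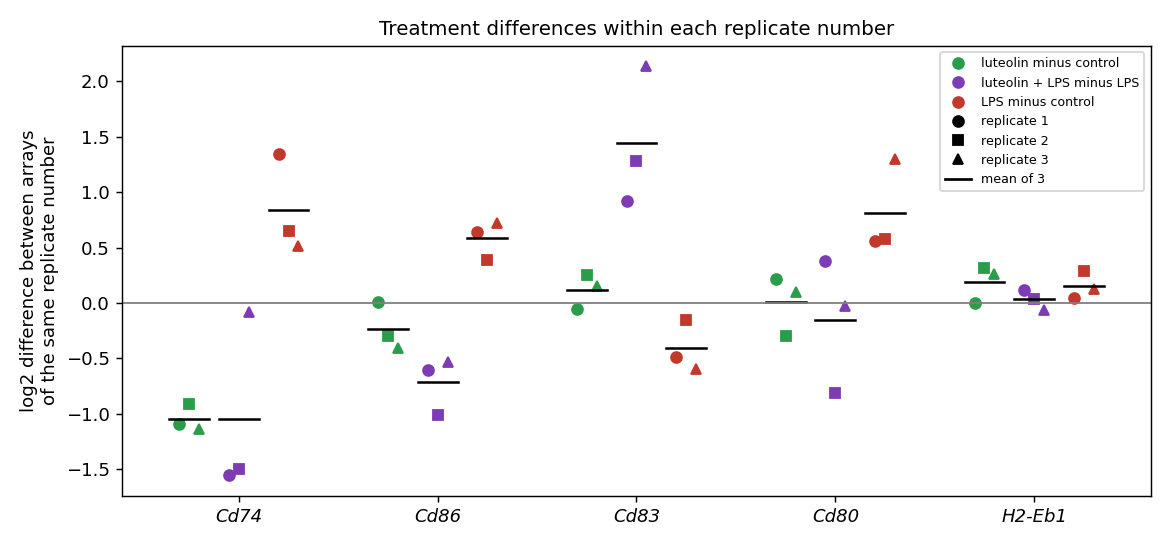
Log2 differences between arrays of the same replicate number for the 5 members tested, with luteolin minus control in green, luteolin + LPS minus LPS in purple and LPS minus control in red, a symbol per number and a bar at the mean of 3. All 6 luteolin differences of Cd74 lie below 0, between -1.55 and -0.08, and the 3 differences of Cd83 with luteolin + LPS lie above 0, between 0.92 and 2.13.

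The other genes of antigen presentation were taken from 8 lists, of which 66 genes were tested. For LPS versus control, 4 of them rose and 2 fell, which is 9.1% of the list beside 4.18% of all genes, and with the block 13 rose and 8 fell (31.8% beside 11.1%). The median log2 fold change over the 66 was 0.02, beside -0.04 over all genes tested. Of the 7 genes called without the block in any comparison, Tapbp alone kept its call whichever single array was left out, and it lost the call when all arrays of number 2 or 3 were left out (adjusted p = 0.0636 and 0.245).

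Among 8 other B7 and TNF family costimulators tested, 1 rose and 1 fell with LPS, and the list median was 0.34. Cd40, the receptor through which helper T cells license antigen-presenting cells, read 353.2, 422.2 and 270.1 in control and 2413.3, 1402.6 and 1562.3 with LPS, a log2 fold change of 2.35 (SE 0.42, adjusted p = 0.0123). Vsir, which encodes the inhibitory B7 relative VISTA, read 814.9, 737.4 and 693.1 in control and 446.0, 348.4 and 225.5 with LPS, a log2 fold change of -1.19 (SE 0.24, adjusted p = 0.0195). Neither gene's control and LPS arrays overlapped. Icosl, the ligand of ICOS, was at 1.55 (SE 0.43) and passed with the block alone (adjusted p = 0.0738, with the block 0.0197). Cd274, which encodes PD-L1, was at 1.48 (SE 0.69, adjusted p = 0.260, with the block 0.00372).

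Among 9 genes of adhesion and other T cell contacts tested, 2 rose with LPS (22.2%, beside 4.18% of all genes). With the block 3 rose (33.3%, beside 11.1%). Icam1, the ligand of LFA-1, read 473.8, 514.0 and 518.3 in control and 2098.4, 1485.8 and 1931.1 with LPS (log2 fold change 1.86, SE 0.41, adjusted p = 0.0309). Cd47, the ligand of SIRP alpha, read 2062.3, 3104.3 and 3104.7 in control and 5002.4, 5448.0 and 5397.6 with LPS (0.96, SE 0.21, adjusted p = 0.0295). With the mean of its probe sets Cd47 was at 0.43 and did not pass (adjusted p = 0.235).

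The MHC class I list had 8 of 8 genes above 0 with LPS, with a median of 0.52, beside -0.04 over all genes. Of the list 1 gene passed (12.5%, beside 4.18% of all genes) and 5 passed with the block (62.5%, beside 11.1%). Tapbp, tapasin of the peptide loading complex, rose by 1.28 (SE 0.19, adjusted p = 0.00466), from 2197.7, 1811.0 and 1829.5 to 5263.8, 4582.7 and 4300.0. With the block Tap1 (1.36), Psmb9 (0.94), H2-K1 (0.50) and H2-D1 (0.41) also passed. No test of a difference between class I and class II genes was made.

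Of 11 genes for peptide generation and invariant chain cleavage, 1 fell with LPS (9.1%, beside 4.18% of all genes). With the block 2 fell (18.2%, beside 11.1%). Cst3, the cathepsin inhibitor cystatin C, read 9625.4, 8744.0 and 9205.3 in control and 6884.0, 6497.5 and 5534.0 with LPS (log2 fold change -0.55, SE 0.13, adjusted p = 0.0393). Lgmn, an asparaginyl endopeptidase that cuts the invariant chain, passed with the block alone (-0.51, adjusted p = 0.143, with the block 0.0397). None of the 10 class II promoter factors, 10 regulators of Ciita and 7 genes of class II turnover tested passed without the block. With it, Irf1 (1.18) and Ifngr2 (1.01) were higher and Irf2 (-0.68), Ifngr1 (-0.46), Creb1 (-0.42), Cd9 (-0.58) and Cd81 (-0.43) were lower.

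For luteolin versus control and for luteolin + LPS versus LPS, 0 of the 66 genes passed, without or with the block. Over both states 1 passed, H2-Oa, which is 1.5% of the list beside 3.08% of all genes. It read 234.7, 315.3 and 205.1 in control and 157.3, 157.3 and 140.5 with luteolin, and 213.6, 268.1 and 180.6 with LPS and 126.6, 116.9 and 155.4 with luteolin + LPS. The arrays with luteolin lay below those without it in each state, and H2-Oa fell by 0.72 on the log2 scale (SE 0.13, adjusted p = 0.0223, with the block 0.0118). Its partner chain H2-Ob was under 50 on all 12 arrays, from 6.4 to 10.2.

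With the block, 7 genes were higher with luteolin over both states and 2 were lower, which is 13.6% of the 66 beside 10.1% of all genes. Ctsc, the lysosomal dipeptidyl peptidase cathepsin C, was the other lower gene (-0.59, adjusted p = 0.104, with the block 0.0425). Kat2b (0.47), Spi1 (0.39), Ifngr1 (0.29), Marchf8 (0.41), Cd9 (0.47), Cd276 (0.32) and Vsir (0.43) were the higher ones. Marchf8 encodes a ubiquitin ligase that acts on class II and Cd86, and Spi1 encodes the myeloid factor PU.1.

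**Figure D4:**
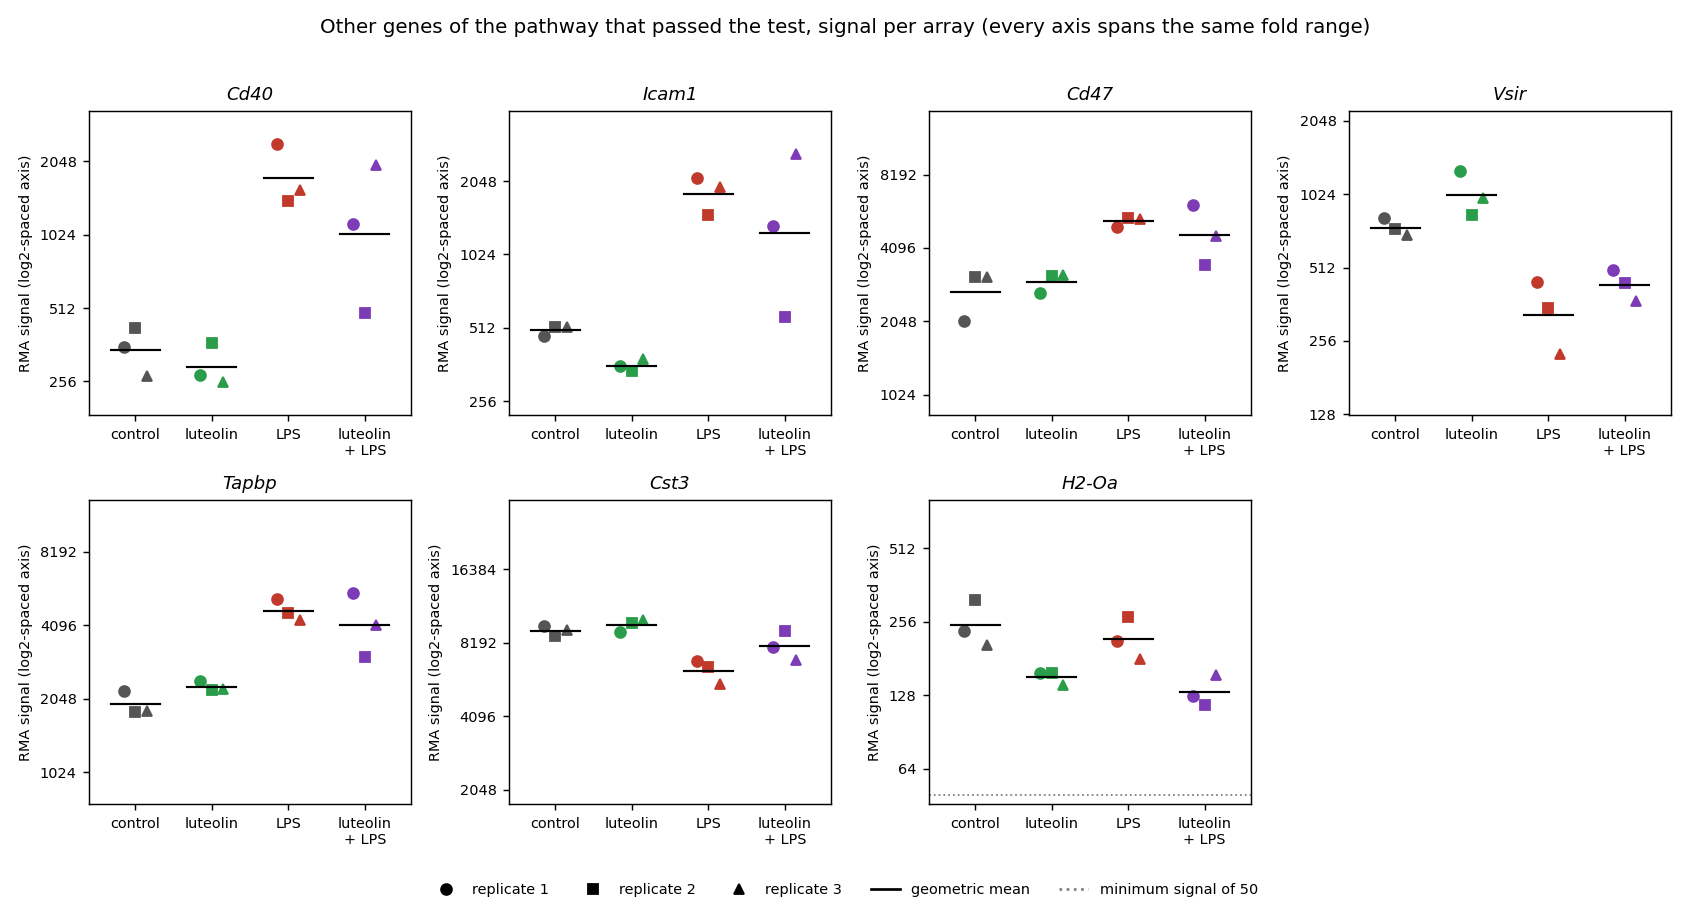
RMA signal per array (log2-spaced axes that each span the same fold range) of the 7 other pathway genes that passed without the block, with a symbol per replicate number and a bar at the geometric mean of 3 arrays. Cd40, Icam1, Cd47 and Tapbp are higher with LPS, Vsir and Cst3 are lower with LPS, and H2-Oa is lower on the arrays with luteolin.

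The BV-2 label was set against markers. All 12 macrophage and microglia markers were tested, with Cd68 at 13176.5 or more and Csf1r at 4827.7 or more. Cx3cr1 (36.0 to 60.1), P2ry12 (17.3 to 112.3) and Tmem119 (39.4 to 120.4) stayed near the minimum signal, and Aif1 ranged from 33.5 to 435.8. Of these 12, Adgre1 (F4/80) rose with LPS (1.29, adjusted p = 0.0310), and with the block Trem2 fell with LPS (-0.86, adjusted p = 0.00819) and Aif1 fell in luteolin + LPS versus LPS (-1.90, adjusted p = 0.0455). P2ry12 was at -0.97 for luteolin over both states (adjusted p = 0.166, with the block 0.0565). Its geometric means were 73.8 in control, 40.1 with luteolin, 48.5 with LPS and 23.1 with luteolin + LPS. The summed signal of the list was 47860 to 49975 in control, 47784 to 58023 with luteolin, 47659 to 54012 with LPS and 40258 to 58171 with luteolin + LPS, and the part of these markers in the members' results was not tested. Of 6 B cell markers 5 had a probe set, and 1 of them, Pax5, was tested, with summed signals of 176 to 178 in control and 172 to 184 with luteolin. Of 6 T cell markers 5 had a probe set and 3 were tested, none of which passed in any comparison, without or with the block. The signals of these 3 ranged from 76.1 to 106.9 for Cd3e, from 97.1 to 146.5 for Cd4 and from 54.1 to 84.2 for Cd8a. These ranges were no lower than that of H2-Eb1 (50.6 to 74.8). Of the 7 dendritic cell markers measured, 4 were tested and Xcr1 and Cd209a were under 50 on all arrays. Their summed signal was 1469 to 2520 in control, 1103 to 1306 with luteolin, 1019 to 1356 with LPS and 848 to 949 with luteolin + LPS. With the block, Itgax (-0.76, adjusted p = 0.0235) and Batf3 (-0.53, adjusted p = 0.0118) were lower with luteolin over both states. The other tested markers, Flt3 (-0.003) and Zbtb46 (-0.16), did not pass. For LPS versus control, Itgax was at -1.38, Batf3 at -0.24, Flt3 at 0.15, Zbtb46 at 0.15 and Cd74 at 0.84. The part of these markers in the Cd74 result was not tested. Itgax is also expressed by macrophages. Luteolin + LPS replicate 2 stood apart in its LPS genes, with Cd40 at 487.9 against 1134.0 and 1967.6 in the other two arrays and Icam1 at 566.0 against 1334.3 and 2632.1.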

How the data were processed

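RNA of 12 BV-2 cultures was measured on Affymetrix Mouse Genome 430 2.0 arrays. PUER cells appear in the labels' extraction text, but every other label and the study give BV-2, which was used here. The labels name a whole-transcript labelling kit, whereas the study's methods describe labelled cRNA. The authors summarized the probes with RMA in Expression Console (background correction, quantile normalization, median polish), and the deposited values are intensities on a linear scale, with array medians of 52.2 to 56.4. Depth has no meaning for arrays, and their number limits the precision.

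Of 45101 probe sets, 34958 named 1 gene. Gene names came from the platform annotation and were updated through RefSeq GRCm38.p6. Log2 values of the probe set with the highest mean were used for each of 18194 genes, and the 12071 genes that reached a mean signal of 50 in any group were tested. All 12 arrays entered one limma fit of 4 group means (version 3.58.1 under R 4.3.3, moderated by eBayes), with two-sided p-values adjusted by Benjamini-Hochberg over all genes tested and a threshold of 0.05. The script was tested on simulated data with independent noise on each array. These data held no effect of the replicate number, so that test does not cover deviations that arrays of the same number share. Figures were drawn with matplotlib 3.10.9.

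Arrays of the same replicate number deviated together from their group means in 18 of 18 pairs (r 0.101 to 0.591, median 0.421). The median of -0.295 for different numbers is not a separate check, because deviations from a group mean cancel out within the group. The numbers were therefore taken to pair the samples, and the fit with the number as a block is given where it changes a call. Members and gene lists were chosen with earlier results of these data known. All members were named, and of the lists the genes that passed, up to 3 per list and comparison, and otherwise mainly the gene with the largest change. Genes that passed with the block alone, the markers and the motifs AACTGATG and TGACGTCA were added after their values or sequences had been seen. Alternatives covered the block, array weights, the probe set rule, filters, centring, an intensity trend and leaving out arrays, the last also with the block.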

Additional observations from a re-analysis of the deposited data

How the results depend on the processing

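With the replicate block the members passing the test numbered 2 rather than 0 for luteolin + LPS versus LPS and 3 rather than 0 for luteolin over both states, and it changed no other call of a member. Array weights gave 2 members for LPS versus control (Cd80 and Cd86), 1 for luteolin versus control (Cd74) and 3 for luteolin over both states. For the last of these, a minimum signal of 100, values under 50 set to 50 and arrays centred on their medians each gave 1 (Cd86). Leaving out 1 array gave 0 to 1 for LPS versus control (Cd86, adjusted p = 0.0360, when luteolin + LPS replicate 2 was left out), 0 to 1 for luteolin + LPS versus LPS and 0 to 2 for luteolin over both states. Leaving out all arrays of number 1, an alternative chosen after seeing the data, gave 1 (Cd83) for luteolin + LPS versus LPS. The share of all genes that passed is given above only for the main fit and the fit with the block. Under the other settings, the counts do not show whether members gained calls more often than other genes.

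The members' values that passed with the block kept their sign in every alternative, including the fits with the block and 1 array left out, which were added after seeing the data. Of the others, Cd80 for luteolin versus control was -0.063 with array weights, -0.017 with values set to 50, -0.025 with arrays centred, -0.098 and -0.041 without numbers 1 and 3, and -0.30 to 0.23 with 1 array left out. Without number 2, Cd80 was 0.18 for luteolin + LPS versus LPS, 0.17 over both states and 0.015 for the interaction, with ranges of -0.59 to 0.18, -0.29 to 0.092 and -0.60 to 0.17 with 1 array left out. H2-Eb1 for luteolin + LPS versus LPS was -0.012 without number 1 and -0.030 to 0.073 with 1 array left out. The Cd74 interaction was -0.52 without number 3 and -0.45 to 0.37 with 1 array left out. With 1 array left out, Cd83 was -0.95 to 0.17 for LPS versus control and -0.38 to 0.69 for luteolin versus control. The cause was not tested.

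Of the pathway genes, whose alternatives were likewise chosen after seeing the data, Tapbp passed in 12 of 12 fits with 1 array left out. Cd40 failed in 1 (adjusted p = 0.0570 without control replicate 3), H2-Oa in 2 (0.0518 and 0.0726 without luteolin replicates 2 and 3), Vsir in 4 (up to 0.0709), Icam1 in 7 (up to 0.0997), Cd47 in 8 (up to 0.0951) and Cst3 in 8 (up to 0.135). With all 4 arrays of 1 number left out, the calls were lost in 2 of 3 fits for Tapbp (adjusted p up to 0.245), Cd40 (0.174), Icam1 (0.212), Vsir (0.290) and Cd47 (0.400), and in 3 of 3 for H2-Oa (-0.52 to -0.88, up to 0.349) and Cst3 (0.458). With only the groups compared, Cst3 (0.0922), Vsir (0.0690) and Cd47 (0.0553) were lost. The 3 arrays per group, and signals near 50 for H2-Eb1 and Cd80, limit what could be detected.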
